A study of Mus musculus with 15 samples.

Results

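The genes that differed from A20 parental cells in the same direction in all 4 *Foxp1* CRISPR clones were identified by pooling the clones. The mean of the 4 clones, each with the same weight, was compared with the parental line in a single contrast. A gene was counted as a member when this pooled contrast was called and the fold change against parental cells had the same sign in each of the clones named E6.1 and E6.2, and E7.1 and E7.2. Of 41388 genes in the count tables, 13904 had enough counts to be tested, and 46 of these were members. The members comprised 41 genes that were lower in the clones (0.295% of the genes tested) and 5 that were higher (0.036%). The counts and their split depended on the method, with 90 lower and 49 higher by DESeq2 and 204 lower and 44 higher when E6.2 was left out.

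A20 cells are an established BALB/c mouse line of B-cell lymphoma. The clones were grown from A20 cells that had been electroporated with a CRISPR/Cas9 plasmid against *Foxp1*, sorted for GFP and diluted to single cells. E6.1 and E6.2 carry a mutation in exon 6 of *Foxp1* and E7.1 and E7.2 a mutation in exon 7, while the parental line is wild type and was not cloned. RNA was sequenced from 3 cultures of each line taken at separate passages, giving 3 parental and 12 clone libraries. Each clone descends from 1 cell. Loss of Foxp1 therefore cannot be told apart from what electroporation, sorting and growth from 1 cell did to all 4 clones, and p values measure the spread between passages of a line.

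Foxp1 is a forkhead transcription factor that can repress or activate genes. It is needed for early B-cell development, is kept on in mature B cells and holds back plasma cell differentiation. In diffuse large B-cell lymphoma it is abundant in the high-risk subtypes and is known to repress MHC class II genes, which present antigen to T cells.

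Total counts ranged from 26328054 to 39181530 per library. Levels are counts scaled to library size (CPM) and corrected by the TMM method. The 8 B-cell markers were present in all lines, with summed levels from 1768 to 1902 CPM in parental and 1370 to 2176 CPM in clone libraries. T-cell, erythroid and fibroblast markers summed to less than 1 CPM in each library. Summed myeloid markers reached 1.87 to 8.10 CPM in parental and 0.421 to 4.62 CPM in clone libraries. Most of this was *Adgre1*, with *S100a8* and *S100a9* at 0 counts throughout, and its part in the results was not tested. Plasma cell markers summed to between 1383 and 1908 CPM in parental and between 861 and 2000 CPM in clone libraries. In such bulk RNA, fewer cells of a type and less RNA per cell cannot be told apart. The E6.2 and E7.2 libraries numbered 3 stood apart from the other libraries, with the 2 lowest TMM factors (0.906 and 0.826). Without both of them 99 genes were lower and 27 higher in all 4 clones, and 45 of the 46 members were among these.

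Across the 13904 genes, the pooled contrast called 64 genes lower (0.46%) and 6 higher (0.0432%) with edgeR's quasi-likelihood test at a Benjamini-Hochberg adjusted p under 0.05. The call alone did not make clones alike, because 24 of the 70 called genes had a clone that went the other way. A shared sign alone was common, since 1928 of the genes tested (13.9%) lay below parental cells in all 4 clones and 2236 (16.1%) above. Of the 46 members, 28 were also clear of the parental line library by library, meaning that all 12 clone libraries lay on one side of all 3 parental libraries. These comprised 24 lower and 4 higher members, while 123 of all genes tested (0.885%) separated in this way as lower and 79 (0.568%) as higher.

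**Figure D1:**
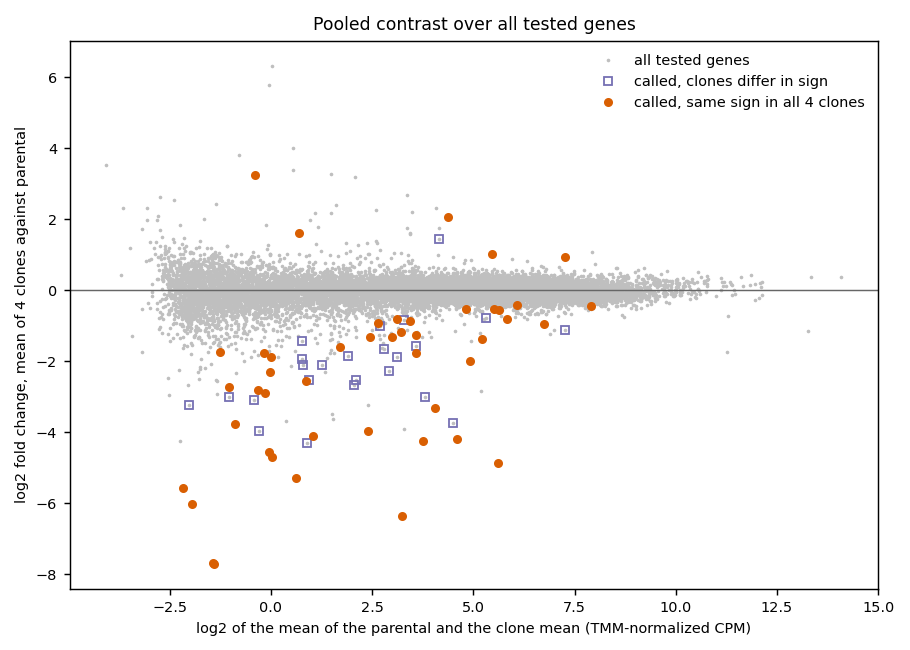
Log2 fold change of the mean of the 4 clones against parental cells (vertical axis) for each of the 13904 genes tested, plotted against the log2 of the mean level in TMM-normalized CPM (horizontal axis). Filled circles are the 46 genes called with the same sign in all 4 clones, of which 41 lie below 0, and open squares are the 24 called genes whose clones differ in sign.

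*Foxp1* itself (chromosome 6, from 98925338 to 99522721 of GRCm38) is the targeted gene and was itself a lower member with overlap between the groups. Its transcript stood at 102, 166 and 147 CPM in the 3 parental libraries, and between 37.1 and 109 CPM in the 12 clone libraries with a median of 81.9. The 6 libraries of the exon 6 clones, from 99.5 to 109 CPM, overlapped the lowest parental library, whereas the 6 libraries of the exon 7 clones, from 37.1 to 64.3 CPM, did not. Pooled over the clones, its log2 fold change was -0.94 (standard error 0.15, edgeR adjusted p = 0.00814). The exon 6 clones had -0.41 (E6.1) and -0.39 (E6.2) and the exon 7 clones -1.29 (E7.1) and -1.69 (E7.2), and they differed among themselves (adjusted p = 0.00225). The call was lost without parental replicate 2 (adjusted p = 0.106), without parental replicate 3 (adjusted p = 0.0692) and when E7.2 was left out (adjusted p = 0.0781). It was also lost when the 12 clone libraries were fitted as 1 group (edgeR adjusted p = 0.834). Neither exon 6 clone was called on its own (edgeR adjusted p = 0.765 for E6.1 and 0.417 for E6.2). A transcript level does not measure how much Foxp1 protein remained.

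The lower members with the largest change were close to undetectable in the clones. *Ptprg* (chromosome 14, from 11553532 to 12242041), a receptor-type tyrosine phosphatase, was read at 30, 29 and 20 counts in the parental libraries, or 0.907, 0.774 and 0.582 CPM. *Sphkap* (chromosome 1, from 83254139 to 83408200), an anchor protein for protein kinase A, was read at 19, 22 and 37 counts there. Both genes had 0 counts in all 12 clone libraries. Against a floor of 3 counts over the 12 libraries together, *Ptprg* was at least 103-fold lower and *Sphkap* at least 102-fold lower in the clones (adjusted p = 0.00626 and 0.00814 from edgeR). Against 3 counts in each single clone, the bounds were from 23.0-fold to 27.6-fold for *Ptprg* and from 22.7-fold to 27.3-fold for *Sphkap*.

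*Slc15a1*, a proton-coupled transporter of small peptides, was read at 25, 14 and 14 counts in parental cells and at 3 counts in the 12 clone libraries together. Parental cells therefore held 69.1 times the level in the clones, with an exact 95% counting interval from 22.4 to 346 (adjusted p = 0.00181 from edgeR). The zinc finger gene *Zfp979* was read at 16, 18 and 11 counts in parental cells, and no clone library held more than 3. Over the 4 clones the log2 fold change was -4.27 when the 2 clones with 0 counts were set to the floor, a value that was not tested. The edgeR fit gave -5.58 (adjusted p = 0.00996). For these 4 genes all 12 clone libraries lay below the parental range. The call of *Ptprg* was lost without parental replicate 2 (adjusted p = 0.0665), that of *Sphkap* with DESeq2 (adjusted p = 0.45) and without parental replicate 2 or 3 (adjusted p = 0.0665 and 0.0685), and that of *Zfp979* without any 1 of the parental libraries (adjusted p from 0.0542 to 0.0861).

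Of the 41 lower members, 11 would not have passed the filter on low counts without their parental libraries and so had to differ, namely these 4 genes, *Phyhip*, *Hmcn2*, *Aldh1a2*, *Lgr6*, *Nedd9*, *Plch1* and *Mcmdc2*, the last 2 named after their values were seen. The higher member *Scn11a* likewise passed through its clone libraries alone. Their p values are given as a description. Each of them was also called without a filter, but that call rests on the same values and is no further support.

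*Iglv2* (chromosome 16, from 19260401 to 19260844), a variable segment of the immunoglobulin lambda light chain, stood at 20.2, 16.2 and 19.3 CPM in parental cells. The 12 clone libraries ranged from 0.0536 to 0.748 CPM with a median of 0.172, and the groups did not overlap. Pooled, the log2 fold change was -6.35 (standard error 0.36, edgeR adjusted p = 2.06e-07), or 81.8-fold, and the 4 clones did not differ detectably from each other (adjusted p = 0.387). Reads from closely related immunoglobulin segments may have been lost or shared in counting, which makes the level uncertain.

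*Phyhip* (chromosome 14, from 70457476 to 70468832), which encodes a partner of the peroxisomal enzyme phytanoyl-CoA hydroxylase, stood at 3.45, 2.99 and 2.47 CPM in parental cells. In the clones it ranged from 0 to 0.276 CPM with a median of 0.0570, again without overlap. In the pooled contrast it had a log2 fold change of -5.30 (with a standard error of 0.37 and an adjusted p of 2.23e-06), for a gene that passed the filter through its parental libraries alone.

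Among the members with a role in metabolism or signalling, *Aldh1a2* (chromosome 9, from 71215789 to 71296243), which encodes an enzyme that makes retinoic acid from retinal, stood at 1.87, 2.00 and 1.95 CPM in parental cells. The clone libraries ranged from 0 to 0.321 CPM with a median of 0.0569, well below the parental libraries. This amounted to a pooled log2 fold change of -4.70 (with a standard error of 0.54 and an edgeR adjusted p of 0.000642). *Lgr6* (chromosome 1, from 134983301 to 135105276), a receptor for R-spondins, which amplify Wnt signals, stood at 1.63, 1.23 and 1.31 CPM in parental cells and from 0.0597 to 0.417 CPM in the clones. Over the 4 clones the log2 fold change was -2.82 (standard error 0.29, adjusted p = 0.000151), with the fold changes of single clones lying between -3.76 and -2.40.

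*Nedd9*, a scaffold protein of integrin signalling, varied little between the parental libraries, at 0.816, 0.801 and 0.844 CPM. The clone libraries ranged from 0.0267 to 0.643 CPM, so that the E7.1 library at 0.643 CPM lay just under the parental range. Pooled, the log2 fold change was -2.71 (standard error 0.43, adjusted p = 0.00818). *Nedd9* was no longer called without parental replicate 2 or 3 (edgeR adjusted p = 0.0719 and 0.0685) or when E7.2 was left out (adjusted p = 0.0604). *Hmcn2*, an extracellular matrix protein, stood at 0.847, 1.36 and 0.815 CPM in parental cells and at no more than 0.187 CPM in any clone library (pooled log2 fold change -3.77, adjusted p = 0.00402). Without parental replicate 2 *Hmcn2* was no longer called (edgeR adjusted p = 0.0712). *Utrn*, the dystrophin relative utrophin, stood at 19.11, 16.85 and 14.97 CPM in parental cells and from 3.66 to 10.9 CPM in the clones (pooled log2 fold change -1.26, adjusted p = 0.0173), and its call was lost without any 1 of the parental libraries (adjusted p from 0.0685 to 0.157).

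*Zc3h12d* (chromosome 10, from 7832470 to 7870397), which encodes an RNA-degrading zinc finger protein of lymphocytes, had uneven levels in parental cells, at 18.7, 4.17 and 6.23 CPM. All 12 clone libraries lay below these, from 0.0536 to 2.09 CPM with a median of 0.684. In the pooled contrast it had a log2 fold change of -3.95 (with a standard error of 0.56 and an edgeR adjusted p of 0.00383). Without parental replicate 1, the highest library, it was -3.04 and no longer called (adjusted p = 0.0715). *Zfp990*, a second zinc finger gene of chromosome 4, stood at 2.117, 1.495 and 1.106 CPM in parental cells and from 0.262 to 0.666 CPM in the clones (pooled log2 fold change -1.89, adjusted p = 0.00383). *Zfp990* too was no longer called without parental replicate 1 (edgeR adjusted p = 0.0540). *Zfp979* and *Zfp990* belong to a family of close copies, between which reads can be split.

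**Figure D2:**
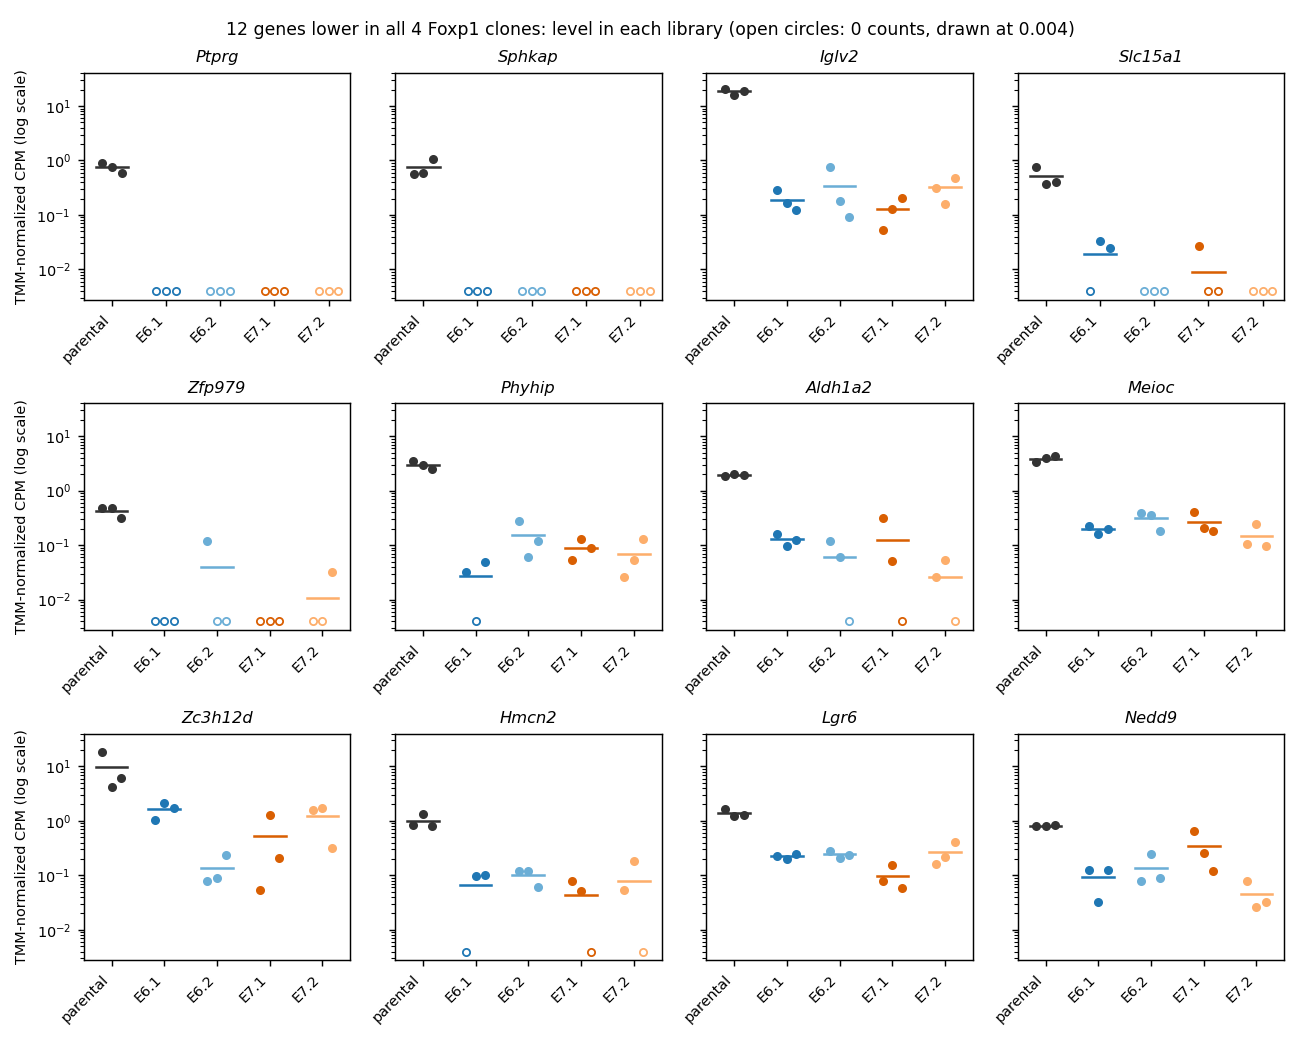
TMM-normalized CPM (log scale) of 12 genes in each of the 15 libraries, with 3 libraries per line and a bar at the mean of each line. These are the 12 lower members reported here with the largest pooled change among those whose groups did not overlap, and open circles are libraries with 0 counts, drawn at the foot of the axis. In each panel the 3 parental libraries lie above all 12 clone libraries.

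Germ cell genes were the list with the most genes called in the pooled contrast. The list held 34 genes of meiosis and gametes, of which 12 were expressed well enough to be tested. Of these 12, 3 were called lower in the pooled contrast (*Meioc*, *Rhox5* and *Spaca6*), against 0.46% of all genes tested, and 0 were called higher. The sign was negative in all 4 clones for 6 of the 12 (50%), against 13.9% of all genes tested. The median pooled log2 fold change of the 12 was -0.71, against 0.01 for all genes tested. With the 1 gene that had 0 counts in a clone set to the floor, the pooled median was -0.66. By clone the list's median was uneven, at -0.28 in E6.2, -0.68 in E7.2, -0.82 in E7.1 and -0.85 in E6.1. The list was chosen with earlier results of these data known and is not independent evidence of a direction.

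*Meioc* (chromosome 11, from 102663716 to 102682237), which keeps germ cells in the meiotic programme, stood at 3.296, 4.005 and 4.338 CPM in parental cells. The clone libraries ranged from 0.0962 to 0.402 CPM with a median of 0.202 and did not overlap with these. This amounted to a pooled log2 fold change of -4.11 (with a standard error of 0.27 and an edgeR adjusted p of 1.35e-06). *Spaca6*, a sperm membrane protein needed for fusion with the egg, stood at 4.90, 2.70 and 1.72 CPM in parental cells and from 0.358 to 1.14 CPM in the clones, without overlap. Over the 4 clones the log2 fold change was -2.57 (standard error 0.32, adjusted p = 0.00156).

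*Rhox5*, an X-linked homeobox gene of reproductive tissue, behaved differently between the clones. It stood at 44.0, 39.9 and 47.8 CPM in parental cells. The 3 libraries of E7.1, at 50.6, 40.7 and 34.7 CPM, covered the parental range, while the 9 libraries of the other clones lay between 2.87 and 14.1 CPM. The pooled log2 fold change of -1.99 (with a standard error of 0.14 and an edgeR adjusted p of 2.23e-06) therefore stood beside -0.06 in E7.1 and -3.60 in E6.2, and the clones differed (adjusted p = 6.03e-07). Of the germ-cell genes that did not pass the test, *Meiob*, *Brdt* and *Taf7l* had negative values in all 4 clones, with pooled log2 fold changes of -0.59, -0.70 and -1.30 (adjusted p = 0.371, 0.512 and 0.521).

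A further group of lower members had larger counts and smaller changes. They include the complement receptor *Cr2* (CD21), which lowers the threshold of B-cell activation, the endocytic receptor *Ly75* (DEC-205) and *Cflar*, which encodes the caspase-8 inhibitor c-FLIP. *Cflar* (chromosome 1, from 58711508 to 58758884) stood at 73.5, 68.6 and 74.5 CPM in parental cells and from 32.2 to 59.3 CPM in the clones with a median of 40.2. The 12 clone libraries lay below the 3 parental ones, with a pooled log2 fold change of -0.80 (with a standard error of 0.13 and an edgeR adjusted p of 0.0122). The call of *Cflar* was lost without any 1 of the parental libraries (adjusted p from 0.0748 to 0.102) and when E7.2 was left out (adjusted p = 0.0762). Of 12 proapoptotic genes tested, 0 were called with edgeR or DESeq2, against 0.503% of all genes tested with edgeR. At an unadjusted p under 0.05 in edgeR, 1 was lower and 2 were higher. The shares over all genes tested were 6.12% lower and 3.78% higher, and so few genes do not show a direction.

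*Ly75* stood at 65.3, 54.8 and 55.8 CPM in parental cells and from 24.99 to 53.83 CPM in the clones, so that the highest clone library and the lowest parental library nearly met. Pooled, the log2 fold change was -0.55 (standard error 0.09, adjusted p = 0.00818), and it was largest in E6.2 at -1.12. *Ly75* was no longer called without parental replicate 1 (edgeR adjusted p = 0.118) or when E6.2 was left out (adjusted p = 0.0537). *Cr2* stood at 57.5, 52.8 and 52.1 CPM in parental cells and from 29.8 to 44.8 CPM in the clones. In the pooled contrast it had a log2 fold change of -0.53 (with a standard error of 0.11 and an adjusted p of 0.0429), with values from -0.64 to -0.43 in single clones and adjusted p values there from 0.0694 to 0.247. No single clone passed the test for *Cr2*, and the pooled call was lost in 20 of 28 alternative analyses, among them each one without 1 of the parental libraries.

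*Erbin*, a scaffold protein that binds the receptor ERBB2, and *Phtf2*, a membrane protein of unsettled function, had the smallest pooled changes of all members. *Erbin* stood at 263, 288 and 277 CPM in parental cells and from 178 to 251 CPM in the clones (pooled log2 fold change -0.44, standard error 0.09, adjusted p = 0.0453 from edgeR). *Phtf2* stood at 83.3, 74.4 and 73.5 CPM in parental cells and from 49.4 to 66.8 CPM in the clones (pooled log2 fold change -0.42, standard error 0.08, adjusted p = 0.0328). Neither gene overlapped between the groups, although their calls were lost in 18 and 19 of the 28 alternatives. Of 3 further members without overlap, named after their values were seen, *Itga6* (integrin alpha 6) had a pooled log2 fold change of -1.19, *Shox2* of -0.92 and *Arhgap5* of -0.53 (adjusted p = 0.00964, 0.0262 and 0.0208). These 3 stayed members in 25, 16 and 15 of the 28 alternatives, respectively. Without any 1 of the parental libraries *Shox2* and *Arhgap5* were no longer members.

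The 5 higher members had no shared role in the lists used here. *Scn11a* (chromosome 9, from 119753763 to 119825456), a voltage-gated sodium channel of sensory neurons, was read at 2, 7 and 5 counts in parental cells, or 0.0605, 0.187 and 0.146 CPM. The clone libraries ranged from 0.241 to 3.46 CPM with a median of 1.58, above all parental libraries. This amounted to a pooled log2 fold change of 3.23 (with a standard error of 0.64 and an edgeR adjusted p of 0.0392), for a gene that passed the filter through its clone libraries alone, and the call was lost in 15 of the 28 alternatives. *Tmtc1* (chromosome 6, from 148232430 to 148444389), which adds mannose to cadherins in the endoplasmic reticulum, stood at 5.99, 6.78 and 8.73 CPM in parental cells and from 15.9 to 125 CPM in the clones with a median of 26.5. The highest value came from replicate 3 of E7.2, one of the libraries that stood apart, and the next highest was 39.6 CPM. The pooled log2 fold change of *Tmtc1* was 2.06 (standard error 0.33, adjusted p = 0.00925). *Tmtc1* was no longer called without parental replicate 1 or 2 (edgeR adjusted p = 0.0840 and 0.0920).

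*Serpinf1*, which encodes the secreted factor PEDF, stood at 0.605, 0.828 and 0.699 CPM in parental cells and from 1.29 to 6.93 CPM in the clones. Over the 4 clones the log2 fold change was 1.60 (standard error 0.25, edgeR adjusted p = 0.00814), with 2.84 in E7.2 and between 1.11 and 1.36 in the other clones. *Serpinf1* was no longer called without parental replicate 1 or 3 (edgeR adjusted p = 0.0602 and 0.0685) or when E7.2 was left out (adjusted p = 0.0823). *Parp8* (chromosome 13, from 116854824 to 117025516), an ADP-ribosyltransferase, stood at 78.8, 120 and 112 CPM in parental cells and from 135 to 288 CPM in the clones with a median of 199. Pooled, the log2 fold change was 0.94 (standard error 0.17, adjusted p = 0.0173), and the values of single clones lay between 0.67 and 1.18. The call of *Parp8* was lost without any 1 of the parental libraries (adjusted p from 0.0665 to 0.118) and when E6.1 was left out (adjusted p = 0.126). The groups did not overlap for either gene. *Gja1* (connexin 43), named after its values were seen, was the one higher member with overlap, since E6.2 stood at 22.9 to 32.9 CPM within the parental range of 22.7 to 35.0 (pooled log2 fold change 1.02, adjusted p = 0.0292). *Gja1* stayed a member in 13 of the 28 alternatives.

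**Figure D3:**
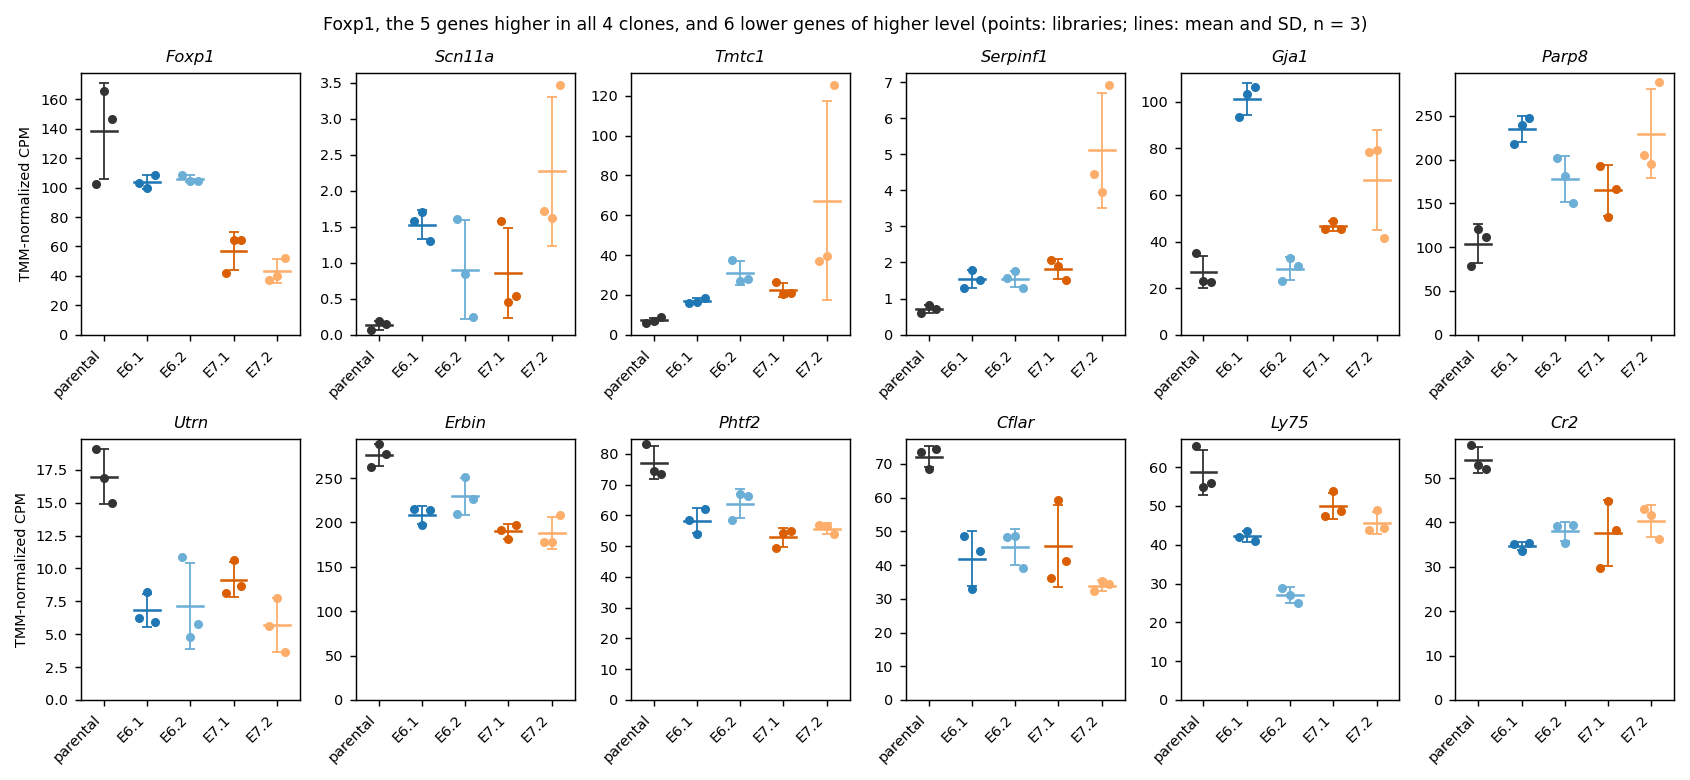
TMM-normalized CPM (linear scale from 0) of *Foxp1*, the 5 higher members and 6 lower members with larger counts, with points for the 3 libraries of each line and bars for the mean and SD. The exon 7 clones lie below the exon 6 clones for *Foxp1*, the E6.2 libraries of *Gja1* lie among the parental ones, and in the lower row the 12 clone libraries lie below the 3 parental libraries in each panel.

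For 30 members the test among the 4 clones did not detect a difference in the size of the change. For 16 it did (adjusted p under 0.05). The 30 were not all even, since *Zc3h12d* ran from -6.08 (E6.2) to -2.58 (E6.1) and *Nedd9* from -4.03 (E7.2) to -1.26 (E7.1). Over all genes tested, 1148 differed among the clones (8.26%). For 19 members the log2 fold change was -1 or less in each clone. At the other end, for 7 members 1 clone gave more of the pooled change than the other 3 together. *Armcx2* held 0 to 1 counts in the libraries of E6.1, against 787, 786 and 820 counts in parental cells, while its mean log2 fold change over the other 3 clones was -0.86. *Sumf2* and *Nlrc4* were lowered mainly in E6.2, with a mean log2 fold change of -0.24 and -0.21 in the other 3 clones. *9330111N05Rik* was lowered mainly in E7.1, with -0.23 in the other 3 clones. These 4 genes were named after their values were seen. For *Sumf2*, *Nlrc4* and *9330111N05Rik* the shared sign rests on clones that lie close to parental cells. For *Armcx2*, only E6.2 lay close to parental cells, at a log2 fold change of -0.16. The changes of this gene were larger for E7.2 (-0.81) and E7.1 (-1.60).

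For 2 lower members, the processed pseudogenes *Rpl15-ps3* and *Rpl15-ps2*, 1 parental library held most of the counts. *Rpl15-ps3* was read at 9264, 60 and 58 counts in the parental libraries, and the 2 lower libraries, at 1.60 and 1.69 CPM, lay within the clone range from 0.925 to 11.7 CPM. *Rpl15-ps2* was read at 37, 39 and 2579 counts, and its 2 lower parental libraries also lay within the clone range. Neither was called without that library, and reads of such copies of *Rpl15* can be placed on the wrong copy. *Plch1*, a phospholipase C gene, likewise stood at 0.0907 CPM in parental replicate 1, within the clone range from 0 to 1.38 CPM, and at 1.58 and 3.61 CPM in the other two. These 3 genes were named after their values were seen.

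**Figure D4:**
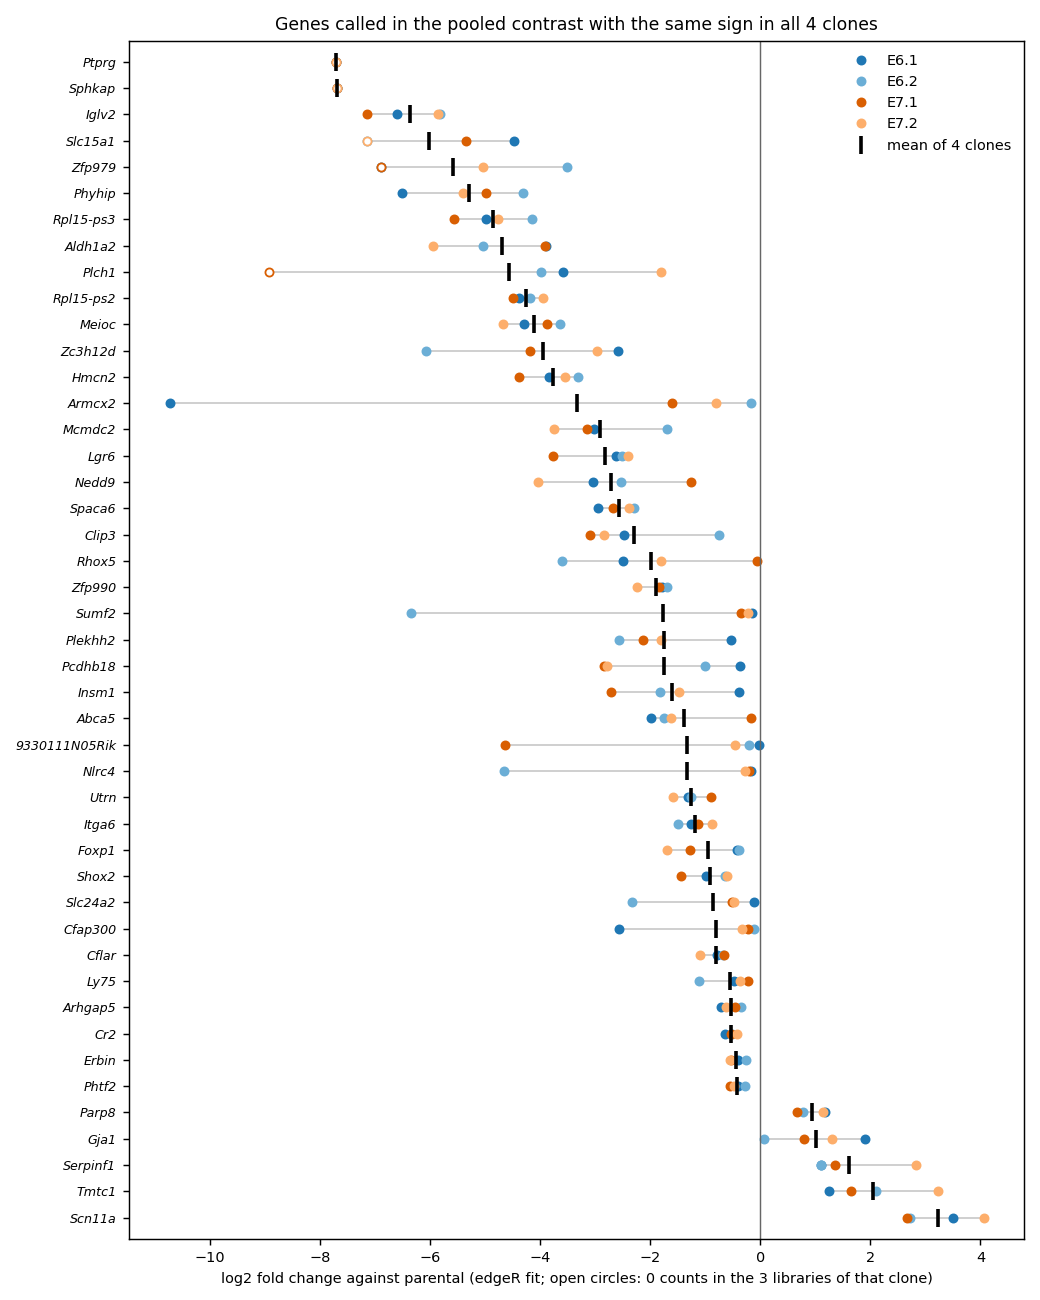
Log2 fold change against parental cells in each clone (circles) and in the pooled contrast (bars) for the members reported here. Open circles mark clones with 0 counts in all 3 libraries, where the fitted value depends on the prior count of the model. *Meioc*, *Lgr6* and *Zfp990* have clones close together, while *Armcx2*, *Sumf2*, *Nlrc4* and *9330111N05Rik* have 1 clone far from the other 3.

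The 24 called genes that were not members show what the pooled mean alone would have included. For 10 of them a clone had 0 counts in all 3 of its libraries. *Slc7a11*, the cystine and glutamate antiporter, stood at 16.4, 40.7 and 31.8 CPM in parental cells and had 0 counts in all libraries of E6.2, at least 921-fold lower against the floor of 3 counts in that clone. In E6.1, at 27.2 to 38.0 CPM, it lay within the parental range. Its pooled log2 fold change was -3.75 in the edgeR fit (adjusted p = 0.00818), and -2.97 with E6.2 set to the floor, which was not tested. *Gm15128* and *Colq* (the collagen tail of acetylcholinesterase) had 0 counts in E7.1, with log2 fold changes of 1.497 for *Gm15128* in E6.2 and 1.68 for *Colq* in E6.1. *Proser2* had 0 counts in E6.2 and a log2 fold change of 0.08 in E7.1. *Map1b*, a microtubule-associated protein, stood at 0.484, 0.801 and 0.728 CPM in parental cells, at 5.90, 3.27 and 0.662 CPM in E6.2 and at no more than 0.0981 CPM in any other clone library. In the pooled contrast it had a log2 fold change of -3.09 (adjusted p = 0.0429), although the plain mean of the clones, 0.836 CPM, was above that of parental cells, 0.671 CPM. The plain mean had the opposite sign to the mean of logs in 4 called genes and in 0 members.

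Promoter sequences from RefSeq (GRCm38.p6), from 250 bases before to 50 bases after each start, were matched by symbol for 36 of the 45 members reported here, giving 41 promoters. Both strands were searched for 2 forkhead motifs, TGTTTAC and TATTTAT, and matches of each were counted separately. TGTTTAC was present in 0 of the 41 promoters, in 3.65% of all 32851 promoters and in 2.545% of the promoters of tested genes. TATTTAT was present in 1 of the 41 (2.439%), in 5.598% of all promoters and in 2.753% of those of tested genes. The 1 match was in *Shox2*, 202 bases before its start, and is shown with 20 bases on each side and the motif, read on the opposite strand, in capitals (chr3:66981947-66981993, reverse strand).
Shox2: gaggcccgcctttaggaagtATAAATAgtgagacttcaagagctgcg
The median number of CG dinucleotides in the 41 promoters was 11, against 20 in the promoters of tested genes and 7 in all promoters. The 120 bases before the start are shown for 2 lower and 2 higher members whose groups did not overlap, picked as examples. Each CG is in capitals, for *Aldh1a2* (chr9:71215669-71215788, forward strand), *Meioc* (chr11:102665465-102665584, forward strand), *Tmtc1* (chr6:148444353-148444472, reverse strand) and *Parp8* (chr13:117025532-117025651, reverse strand).
Aldh1a2: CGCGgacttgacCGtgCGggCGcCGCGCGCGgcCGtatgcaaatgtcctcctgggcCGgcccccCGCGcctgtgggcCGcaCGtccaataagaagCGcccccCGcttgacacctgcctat
Meioc: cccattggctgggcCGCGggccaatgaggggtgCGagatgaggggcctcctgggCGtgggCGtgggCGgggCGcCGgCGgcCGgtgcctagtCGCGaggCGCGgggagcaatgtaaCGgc
Tmtc1: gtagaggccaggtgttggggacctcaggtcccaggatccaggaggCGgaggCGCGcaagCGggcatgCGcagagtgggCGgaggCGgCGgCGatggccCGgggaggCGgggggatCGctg
Parp8: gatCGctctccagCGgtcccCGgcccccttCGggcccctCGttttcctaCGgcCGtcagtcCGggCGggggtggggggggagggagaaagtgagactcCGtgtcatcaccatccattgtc
These stretches held 17, 15, 12 and 10 CG dinucleotides, respectively. Their whole promoters held 50, 28, 30 and 37, all above the median of 11, so that these 4 do not stand for the members. A motif match or its absence in these windows is a description of the letters.

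Lists of genes from the pathways studied in this lymphoma showed few calls. Over all genes tested 0.503% were called, and at an unadjusted p under 0.05 851 were lower (6.12%) and 525 higher (3.78%). Of 77 genes of oxidative phosphorylation tested, 66 had a positive pooled log2 fold change and 38 (49.4%) were positive in all 4 clones, against 16.1% of all genes tested. The median was 0.18 in the pooled contrast, with 0.12 (E6.1) and 0.10 (E6.2) in the exon 6 clones and 0.35 (E7.1) and 0.20 (E7.2) in the exon 7 clones, against 0.01 in the pooled contrast for all genes. No gene of the list was called with edgeR's quasi-likelihood test, its likelihood ratio test or DESeq2, and 9 were higher and 0 lower at an unadjusted p under 0.05. *Ndufa3*, a subunit of complex I, had a pooled log2 fold change of 0.50 (adjusted p = 0.331) and *Atp5j2*, a subunit of ATP synthase, of 0.56 (adjusted p = 0.374), and for both the clone libraries overlapped the parental ones. Exon length differed in the same way as sign, since the median was 1363 bases in this list, 3210.5 bases in all genes tested, 2498.5 in those higher in all 4 clones and 4366 in those lower in all 4 clones. The part of length in these values was not tested.

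Glycolysis genes had a pooled median of 0.33 over 19 genes, but this was uneven, with E7.1 and E7.2 at medians of 0.63 and 0.56, while E6.1 and E6.2 were at 0.02 and -0.03. None was called by the same 3 tests, with 4 higher and 0 lower at an unadjusted p under 0.05. The 19 MHC class II genes and their regulators had a median of -0.02, with 0 called by the 3 tests and 1 lower at an unadjusted p under 0.05. *Cd74*, the invariant chain, had a pooled log2 fold change of 0.24 (adjusted p = 0.643), and the activator *Ciita* of -0.13 (adjusted p = 0.799).

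Among 18 transcription factors of the B lineage the median was -0.19, with 0 called by the 3 tests and 4 lower at an unadjusted p under 0.05. *Ebf1*, which sets B-cell identity, stood at 22.7 to 24.1 CPM in parental and 10.2 to 20.9 CPM in clone libraries, without overlap. It did not pass the edgeR test (log2 fold change -0.46, adjusted p = 0.259). *Pax5* had a mean of 28.8 CPM in parental and 31.5 CPM in clone libraries. Of the 8 B-cell markers, which include both genes, 3 had a negative and 5 a positive pooled log2 fold change. The median of these markers was 0.09, and 0 were called. In the list of B-cell receptor signalling, *Cr2* was the 1 gene called of 23, and the list's median was 0.11. Of 20 Wnt pathway genes tested, *Lgr6* was a member, and *Daam1* was called (log2 fold change -0.77, adjusted p = 0.0018) but stood higher in E7.2 at 0.34. Of 10 genes of retinoid metabolism tested, *Aldh1a2* was a member, and the carotenoid-cleaving enzyme *Bco1* was called with E6.1 and E7.2 above and E6.2 and E7.1 below parental cells. Of 22 immunoglobulin segments tested, *Iglv2* was the 1 called, and the list's median was 0.24.

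**Figure D5:**
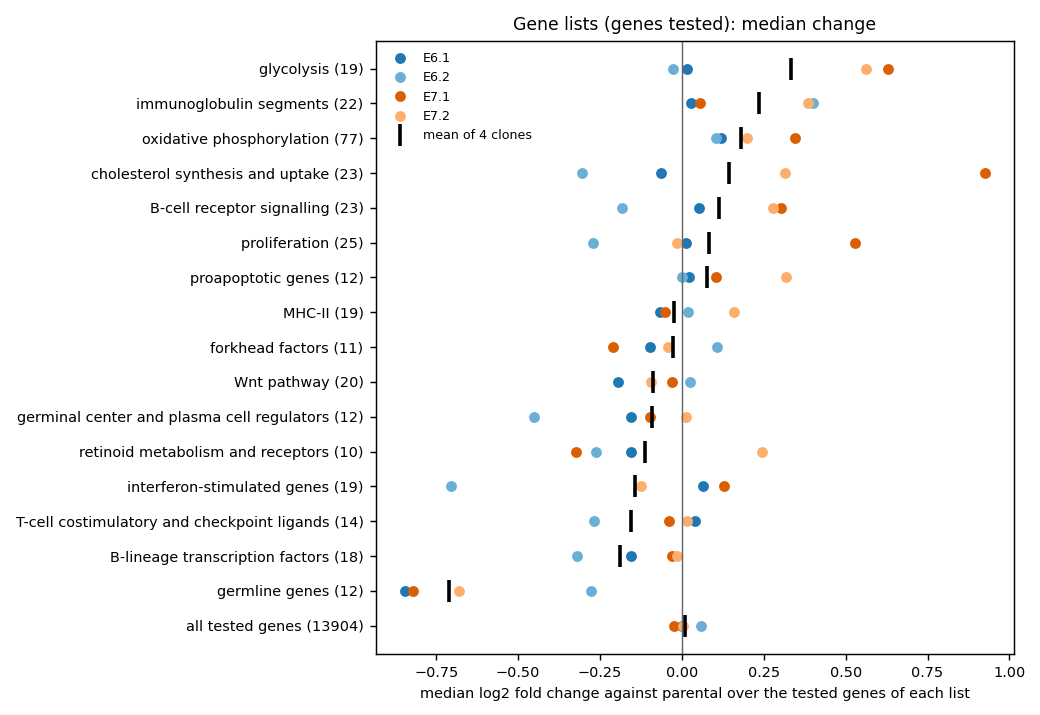
Median log2 fold change against parental cells over the tested genes of each list, in each clone (circles) and in the pooled contrast (bars), with the number of genes tested in brackets. Of the lists drawn, the germline list has the pooled median furthest below 0, at -0.71. The lists of oxidative phosphorylation, immunoglobulin segments and proapoptotic genes lie above 0 in all 4 clones, the last at only 0.000168 in E6.2. The glycolysis list is above 0.5 in the exon 7 clones alone.

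The spread used for these tests was that between passages of a line. When all 12 clone libraries were fitted as 1 group, so that differences between clones entered the spread, edgeR called 16 genes lower and 0 higher, with 414 lower and 381 higher at an unadjusted p under 0.05. All 16 were members. They included *Iglv2*, *Meioc*, *Spaca6*, *Itga6* and *Zfp990*. They also included *Phyhip*, *Lgr6*, *Aldh1a2*, *Slc15a1*, *Hmcn2*, *Ptprg*, *Sphkap* and *Zfp979*, which needed their parental libraries to pass the filter. *Rpl15-ps2* and *Rpl15-ps3*, whose values rest on 1 parental library each, were among them too. The other members were not called in that fit, with *Foxp1*, *Zc3h12d*, *Nedd9*, *Utrn*, *Rhox5*, *Cflar*, *Ly75* and all higher members among those lost. When counts were summed per line, leaving 4 clones against 1 parental sum, 4 genes were called lower and 0 higher, with 88 and 33 at an unadjusted p under 0.05, and *Iglv2* and the same 2 pseudogenes were among the 4. *Iglv2* was called in each of the 28 alternative analyses. Leaving out parental replicate 2 reduced the lower members from 41 to 17 and the higher from 5 to 1, parental replicate 3 to 22 and 1 and parental replicate 1 to 29 and 3, while leaving out E6.2 replicate 1 raised the lower members to 68.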

How the data were processed

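The authors aligned paired-end HiSeq4000 reads to the mouse genome with HISAT and deposited raw counts per gene from featureCounts v1.5.0 for each of the 15 libraries, counted without strand, so that overlapping and antisense genes share reads. Total counts ranged from 26328054 to 39181530 per library, and their number limits precision through counting error. A floor of 3 counts, and exact 95% intervals for ratios of small counts, cover counting error only. Libraries were grouped by the line in their labels. Genes with low counts were removed with filterByExpr, and all 15 libraries were fitted together with edgeR 4.0.16 (TMM, quasi-likelihood F-test, R 4.3.3) with 1 coefficient per line. The pooled contrast was the mean of the 4 clone coefficients on the log2 scale minus the parental one, and a second test on 3 contrasts compared the clones. Benjamini-Hochberg adjustment was made over all 13904 genes, with a threshold of 0.05. Genes named in the text were *Foxp1*, the members without overlap with the largest change or highest level, members of the gene lists, and the 5 called genes with the largest change whose clones differed in sign. Members and lists were chosen with earlier results of these data known. The 92 spike-in features held 0 counts and were left out, and 40254 of 41388 gene identifiers matched a symbol. Alternatives included DESeq2 1.42.0, other scaling and filters, and leaving out libraries or clones. Scripts were tested on simulated counts. 1 member is counted but not reported here.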

Additional observations from a re-analysis of the deposited data

Results flagged for a closer look

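The fold change against parental cells differed between the 4 clones (edgeR quasi-likelihood F-test among the clones, adjusted p under 0.05) for 21 of the genes described. Among members carried mainly by 1 clone, the adjusted p was 1.95e-08 for *Armcx2*, 6.69e-06 for *Sumf2*, 3.89e-05 for *Cfap300*, 4.83e-05 for *9330111N05Rik*, 9.67e-05 for *Nlrc4*, 0.000209 for *Slc24a2* and 0.00164 for *Ly75*. For *Rhox5*, which stood at the parental level in E7.1, it was 6.03e-07. Of the higher members, it was 0.00166 for *Gja1*, 0.00212 for *Serpinf1* and 0.0143 for *Tmtc1*. *Foxp1* differed at an adjusted p of 0.00225, with lower levels in the exon 7 clones than in the exon 6 clones. Among called genes whose clones had opposite signs, the value was 1.8e-06 for *Gm15128*, 2.52e-05 for *Colq*, 9.64e-05 for *Map1b*, 0.000516 for *Slc7a11* and 0.00443 for *Proser2*. The remaining lower members were *Pcdhb18* at 0.0143, *Abca5* at 0.0153, *Clip3* at 0.0262 and *Insm1* at 0.0273.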

How the results depend on the processing

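Counts are given as lower in the pooled contrast, lower with 1 sign in all 4 clones and lower without overlap, then the same for higher, then genes that differed among clones, and the values in the report were 64, 41, 24, 6, 5, 4 and 1148. Without a filter they were 97, 67, 37, 9, 8, 4 and 1839. DESeq2 gave 126, 90, 43, 52, 49, 24 and 2875, with 29.2% of its calls higher against 8.57%, and the likelihood ratio test 130, 87, 38, 14, 13, 7 and 2563. Leaving out E6.1 gave 46, 32, 23, 2, 2, 2 and 538, leaving out E6.2 gave 220, 204, 137, 46, 44, 36 and 512, leaving out E7.1 gave 52, 37, 30, 6, 4, 4 and 216, and leaving out E7.2 gave 63, 47, 28, 6, 4, 3 and 1826. With a clone left out, the same sign and no overlap were required of the other 3 clones only. Those counts therefore meet a weaker rule than the values in the report. As 2 groups the first 6 were 16, 16, 14, 0, 0 and 0, and summed per line 4, 4, 2, 0, 0 and 0. With the E6.2 and E7.2 libraries numbered 3 both left out, an alternative chosen after seeing the data, they were 136, 99, 49, 30, 27, 13 and 4268. Without 1 library at a time the ranges were 25 to 91, 17 to 68, 12 to 40, 1 to 11, 1 to 9, 1 to 5 and 421 to 3233. The cause of these shifts was not tested. *Map1b* reversed to 0.29 as 2 groups and to 0.15 summed per line. Of the other values of named genes, 699 kept their side of the threshold and 166 no longer passed it.

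With a replicate block the counts were 56, 32, 19, 5, 4, 3 and 975. Libraries with the same number correlated with a mean r of 0.0531 over 30 pairs (from -0.124 to 0.426), against -0.0249 for other numbers. The correlation was over 0.1 in 11 of the 30 pairs, among them all 3 pairs of E6.2 with E7.2, but not in every pair, and not every library correlated best with one of its own number, so that the numbers were not taken to pair the libraries. Under the block the calls of *Scn11a* (adjusted p = 0.0668), *Erbin* (0.0818), *Phtf2* (0.0779) and *Cr2* (0.0881) were lost. Genes read at a few counts in parental cells, such as *Zfp979*, are limited by depth, since 3 counts correspond to between 0.0751 and 0.118 CPM in a library.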

Other observations

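Some genes separated the clones from parental cells in every library without passing the test, 99 of them lower and 75 higher in the clones. An example chosen after its values were seen is *Prkaa1*, a catalytic subunit of AMP-activated kinase, at 104 to 109 CPM in parental and 53.9 to 102 CPM in clone libraries (log2 fold change -0.50, edgeR adjusted p = 0.0549). In the other direction, the RNA helicase *Ddx56*, chosen in the same way, stood at 44.5 to 52.4 CPM in parental and 52.6 to 78.2 CPM in clone libraries (0.43, adjusted p = 0.0603).

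Further lists held 0 genes called by edgeR or DESeq2, against 0.503% of all genes tested with edgeR. Over all genes tested, 6.12% were lower and 3.78% higher at an unadjusted p under 0.05 in edgeR. The median log2 fold change was 0.14 for 23 genes of cholesterol synthesis and uptake (0 lower and 0 higher at an unadjusted p under 0.05), -0.09 for 12 regulators of germinal center and plasma cells (2 and 0), -0.03 for 11 forkhead factors with *Foxp1* aside (2 and 0), -0.14 for 19 interferon-stimulated genes (3 and 0), -0.16 for 14 ligands of T cells (2 and 0) and 0.08 for 25 proliferation genes (0 and 0).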
